A study of Homo sapiens with 6 samples.

Results

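The 10 genes described here encode LSm proteins, relatives of the Sm proteins that close into rings on RNA. They were taken by name (LSM1 to LSM8, LSM10 and LSM11) from 20033 protein-coding genes with a span on the nuclear chromosomes in the RefSeq table of build GRCh38, and every peak with its summit inside such a span was kept. That gave 7 peaks of 30111 in replicate 1, 14 of 160931 in replicate 2 and 15 of 65097 in replicate 3. The data are RNA immunoprecipitation followed by sequencing (RIP-seq), which recovers RNAs held by a chosen protein, from HEK293T, an established human embryonic kidney cell line. The labels gave 3 samples of genotype SNRPD2OE, read here as overexpression of SNRPD2, and 3 samples of genotype Ctrl. SNRPD2 encodes SmD2, a subunit of the Sm ring, and the stated aim of the series was to examine how SmD2 and pseudouridine, a modified RNA base, act together. Peak lists of the 3 SNRPD2OE samples were used, and the Ctrl samples were not analysed here, so no value below is a difference between genotypes. The labels do not say how SNRPD2 was overexpressed or whether replicates came from separate cultures, so the spread between lists may be technical.

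As background, LSm proteins form rings that differ by a few subunits and by the RNA they hold. LSM2 to LSM8 make the nuclear ring that binds the uridine-rich 3′ end of U6, the small nuclear RNA (snRNA) at the catalytic centre of the spliceosome. When LSM1 takes the place of LSM8, the ring becomes cytoplasmic, binds shortened mRNA tails and promotes removal of the cap. LSM10 and LSM11 replace SmD1 and SmD2 in the ring of U7, the snRNA that directs 3′ end processing of histone pre-mRNA. These peaks concern RNA from the genes of the LSm proteins, not the RNAs that the LSm rings bind.

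A peak near an annotated start could be set against the RefSeq promoter table (build GRCh38.p14), which held 8 of the 10 genes in 9 windows, each from 250 bases before a start to 50 after it. Peaks reached into the window of LSM10 in replicate 1 and of LSM8 in replicate 3, and these stretches are shown because they are the member sequences under a peak that the table holds. Both run 5′ to 3′ on the gene's own strand over bases 21 to 50 from the annotated start, with the bases under the peak in capitals. LSM10 lies on the minus strand and its stretch is chr1:36397859-36397888. LSM8 lies on the plus strand and its stretch is chr7:118184184-118184213.
LSM10: agagcggcccggtcgccgGCATGGTTTCTC
LSM8: CGGCACCGCTGCGTTACCCGGAACCGCCGG
The LSM10 peak covered 12 bases of the window, from base 39 onward. The LSM8 peak covered 37 bases of it, from base 14 onward, and all 30 printed bases lie under the peak.

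The lists differed in kind, and this bears on each count below. Replicate 3 stood apart, with a median peak width of 12210 bp against 77 bp in replicate 1 and 40 bp in replicate 2, and with 75.7% of its peaks wider than 1000 bp. Reads at each summit were worked out from the deposited fold and p. They are the depth at the summit position, and all read numbers below have this meaning. A peak may hold more reads than its summit. The median over a whole list was 4 reads in replicate 1 and 1 read in each of replicates 2 and 3. Only 4.81%, 3.62% and 1.86% of the peaks of replicates 1, 2 and 3 had a −log10 q of at least 1.3, that is, a q-value of about 0.05 or less. The fold adds 1 to a scaled pileup of reads and to the caller's background, and a read counted for 0.599, 1 and 0.254 in that pileup in replicates 1, 2 and 3. Folds are the authors' own and were not compared between lists. Intervals on reads below are exact 95% Poisson intervals, which cover counting error only, since duplicates cannot be told from separate molecules.

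A summit lay in 3 of the 10 LSm genes in replicate 1, in 7 in replicate 2 and in 6 in replicate 3. The shares of all protein-coding genes with a summit were 45.3%, 76.8% and 65.5%. LSM1 alone had a summit in all 3 lists, 1 of 10 genes, against 38.5% of protein-coding genes. LSM3, LSM6, LSM8, LSM10 and LSM11 had summits in 2 lists. LSM2, LSM5 and LSM7 had summits in 1 list, and LSM4 had none. The LSm genes are short, with spans of 4473 to 22306 bp and a median of 14600 bp, against a median of 24100 bp for protein-coding genes. Among the 6671 protein-coding genes within that range of spans, the shares were 36.4%, 70.1% and 49.2% in replicates 1, 2 and 3, and 22.8% in all 3 lists. A summit with at least 10 reads lay in 2 LSm genes in replicate 1 (LSM1 and LSM10), in 2 in replicate 2 (LSM1 and LSM7) and in 4 in replicate 3 (LSM1, LSM3, LSM8 and LSM10), against 14.2%, 15.9% and 13.4% of protein-coding genes. In each list the LSm count over all peaks was within 2 genes of what either share gives for 10 genes. Transcript levels were not used here, and their part in which genes had a peak was not tested.

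**Figure D1:**
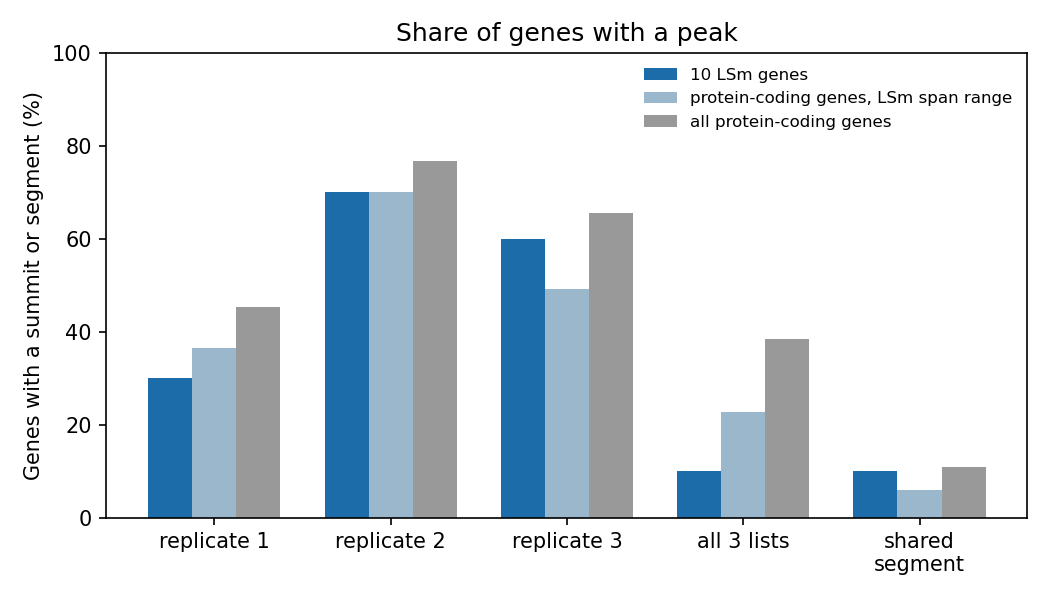
Percent of genes (vertical axis) with a peak summit in each replicate, with a summit in all 3 lists, and with a segment of at least 20 bp covered by all 3 lists. Bars stand for the 10 LSm genes, for protein-coding genes with spans within the LSm range and for all protein-coding genes. In each single list the LSm bar lies near the others, and for all 3 lists it is 10% against 22.8% and 38.5%.

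Of the 36 LSm peaks, 11 rested on 1 read at the summit, 14 had at least 10 reads, and 28 had a deposited −log10 q of 0. By replicate, 0, 8 and 3 LSm peaks had 1 read, against 0.0%, 71.4% and 55.0% of the whole lists in turn. At least 10 reads were reached by 4, 3 and 7 LSm peaks, against 21.6%, 5.22% and 8.37% of the whole lists. A −log10 q of at least 1.3 was reached by 2 peaks, at LSM1 in replicate 1 and at LSM10 in replicate 3. The 7 LSm peaks of replicate 1 had a median of 10 reads (range 3 to 28). The 14 of replicate 2 had a median of 1 read (range 1 to 23), and 8 of them had 1 read at the summit. The 15 of replicate 3 had a median of 8 reads (range 1 to 28). The 3 peaks of replicate 3 wider than 1000 bp each had 1 read at the summit. Summits per 10 kb of span numbered 0.514, 1.03 and 1.10 in the LSm genes in replicates 1, 2 and 3, against 0.668, 1.92 and 0.689 in protein-coding genes of the same range of spans and 0.219, 0.934 and 0.363 in all protein-coding genes. The LSm values were above those of all protein-coding genes in each replicate. They were below those of genes of like span in replicates 1 and 2, so there the direction depends on the genes compared. In replicate 3 the LSm value was above both, with 5 of the 15 summits in LSM8 and 3 in LSM10.

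**Figure D2:**
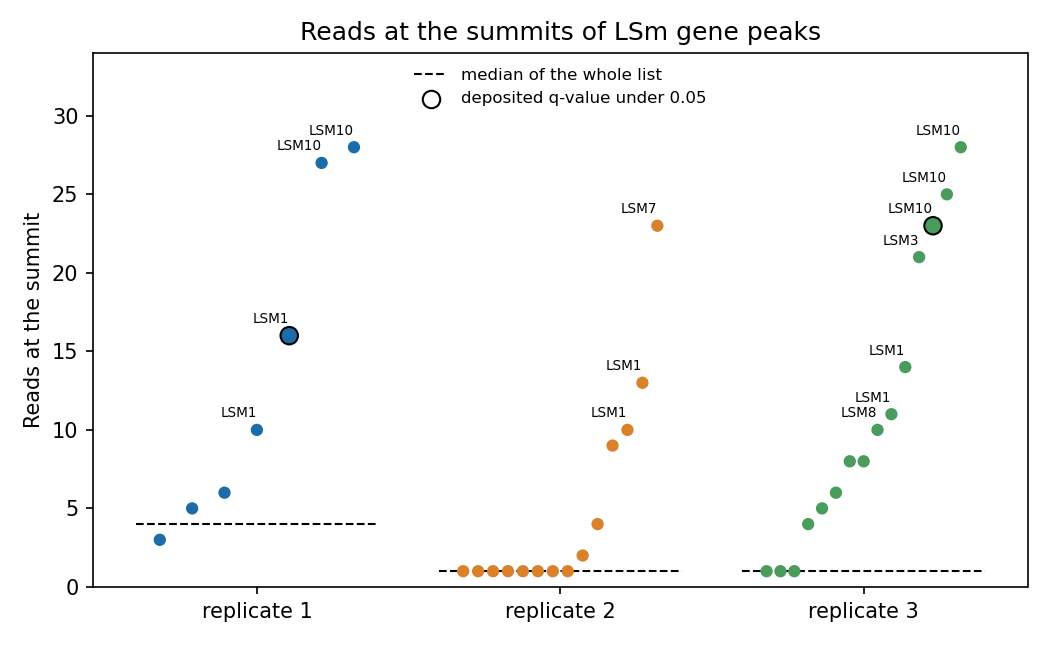
Reads at the summit (vertical axis) of each LSm peak, sorted within its replicate. Dashed lines mark the median of the whole list, large outlined points mark a q-value of about 0.05 or less, and gene names are given from 10 reads upward. The outlined points are LSM1 in replicate 1 (16 reads) and LSM10 in replicate 3 (23 reads), and 8 points of replicate 2 lie at 1 read.

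LSM1, the subunit of the cytoplasmic decay ring, lies on chromosome 8 from 38163321 to 38176730 and was the LSm gene with the most repeatable peaks. It held 4 peaks in replicate 1, 2 in replicate 2 and 2 in replicate 3. Its site covered by all lists was at 89% of the span from the low-coordinate end, where the summits stood 11971, 11955 and 11960 bp from that end in replicates 1, 2 and 3. These summits lay within 16 bp of each other. The peaks there were 192, 156 and 181 bp wide, with 16, 13 and 11 reads (95% intervals 9.15 to 26.0, 6.92 to 22.2 and 5.49 to 19.7). The read numbers overlap within counting error, though their weight in the scaled pileup differs between lists. The folds were 7.62, 3.04 and 3.52 over backgrounds of 0.39, 3.61 and 0.078 scaled reads.

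The −log10 p of that LSM1 site was 10.8 in replicate 1, 4.58 in replicate 2 and 4.13 in replicate 3. A read weighs differently in each scaled pileup, so these values were not compared between lists. These values exceeded 99.5%, 90.5% and 89.3% of the peaks in their own lists. The lists differ in kind, so such percentiles are not a like measure of strength between lists. The −log10 q was 4.85, 0.75 and 0, so only the peak of replicate 1 passed a q-value of 0.05. In replicate 2 this was the weaker LSM1 site, since the peak at 96.8% of the span, described below, had a −log10 p of 5.49 and a −log10 q of 1.21 and exceeded 96.2% of the list. By its strongest peak at either site LSM1 ranked 102 of 9067 protein-coding genes with a summit in replicate 1, 3719 of 15376 in replicate 2 and 3629 of 13122 in replicate 3. The 3 peaks shared a segment of 129 bp, from 38175199 to 38175327. It was the only LSm entry among 3361 segments of at least 20 bp covered by all lists, and 10.8% of protein-coding genes held such a segment.

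A further LSM1 site lay at 97% to 98% of the span in each list, with 10, 10 and 14 reads in replicates 1, 2 and 3 and folds of 3.50, 3.92 and 3.69. The peak of replicate 1 overlapped that of replicate 2 by 13 bp and that of replicate 3 by 46 bp, but the peaks of replicates 2 and 3 did not overlap. The number of reads given for replicate 1 was the closest of 2 solutions, and the other 35 LSm peaks had 1 solution each. Replicate 1 also had LSM1 peaks of 5 and 6 reads at 48.2% and 64.5% of the span, where the other lists had none. The U6 pseudogene RNU6-323P and the end of the long noncoding RNA gene LOC105379382 overlap the LSM1 span, and no LSM1 summit lay in either. Exons and introns were not used here, so the sites cannot be placed in a transcript.

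LSM10, which takes the place of SmD1 in the U7 ring, lies on chromosome 1 from 36393436 to 36397908 and is the shortest member. It had peaks near both ends in replicates 1 and 3, and no peak in replicate 2. Near the 5′ end the summits stood 54 and 101 bp from it, with 28 reads in replicate 1 and 23 reads in replicate 3. These peaks, 124 and 64 bp wide, overlapped by 64 bp, and the peak of replicate 1 reaches the capital bases of the LSM10 stretch printed above. Near the 3′ end the summits stood 438 bp from it in replicate 1, with 27 reads, and 272 bp from it in replicate 3, with 25 reads, and the peaks overlapped by 26 bp. Replicate 3 had a further peak with 28 reads, 680 bp from the 3′ end.

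The LSM10 peaks had the most reads of the LSm genes in replicates 1 and 3, but not the highest rank in replicate 1. There the folds were 2.54 at the 5′ end and 2.15 at the 3′ end, over backgrounds of 6.0 and 7.0 scaled reads, and the −log10 p values of 3.76 and 3.02 exceeded 73.4% and 44.8% of the list. In replicate 3 the 5′ peak had a fold of 5.37 over a background of 0.273, with a −log10 p of 6.34, above 98.2% of the list, and a −log10 q of 1.44. The 3′ peaks of replicate 3 had folds of 3.27 and 3.87 and a −log10 q of 0 and 0.17. In replicate 2 the nearest peak lay 5239 bp outside the span and had 1 read at its summit.

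**Figure D3:**
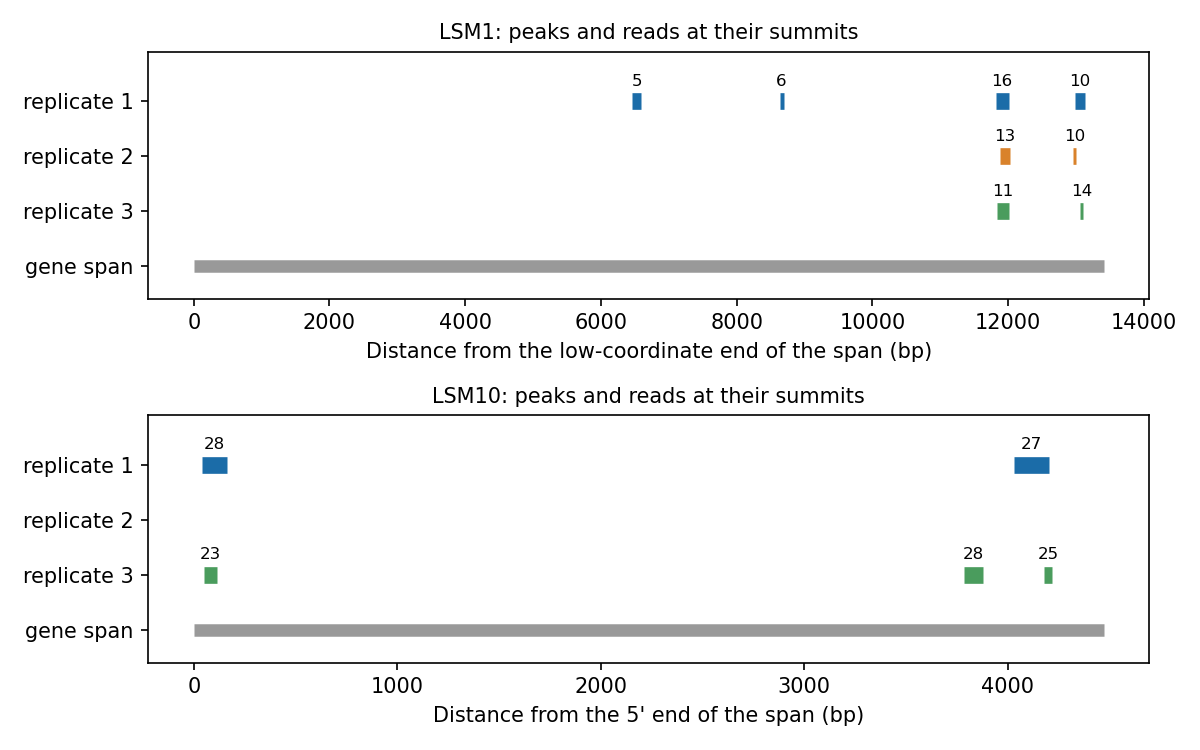
Peaks of replicates 1, 2 and 3 along the spans of LSM1 (top) and LSM10 (bottom), with the number of reads at each summit above its bar; the horizontal axis is the distance in bp from the low-coordinate end of LSM1 and from the 5′ end of LSM10. In LSM1 the peaks of 16, 13 and 11 reads line up in all 3 lists, and in LSM10 peaks lie near both ends in replicates 1 and 3 and none is drawn for replicate 2.

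LSM11, which takes the place of SmD2 itself in the U7 ring, lies on chromosome 5 from 157743712 to 157760709. It had no peak in replicate 1, 4 in replicate 2 and 1 in replicate 3. In replicate 2, 3 of the 4 had 1 read each and lay at 8.9%, 14.0% and 17.9% of the span. The other had 4 reads, a fold of 3.77 and a −log10 p of 4.64, and its summit stood 424 bp from the 3′ end. The peak of replicate 3 had 5 reads and a fold of 2.10 at 66.3% of the span. No LSM11 peak of replicate 2 overlapped that of replicate 3, so the lists agreed on the gene but not on a site.

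LSM8, the subunit that marks the nuclear U6 ring, lies on chromosome 7 from 118184164 to 118204035. It had no peak in replicate 1, where the nearest peak lay 406615 bp away, 4 peaks in replicate 2 and 5 in replicate 3. The peaks of replicate 2 had summits of 1, 1, 2 and 1 reads at 46.7%, 55.9%, 57.4% and 72.7% of the span. In replicate 3, 4 narrow peaks had summits of 8, 4, 10 and 8 reads at 0.3%, 7.6%, 21.1% and 39.3% of the span. The first of these had its summit 68 bp from the 5′ end, downstream of the LSM8 stretch printed above. The strongest, with 10 reads, had a fold of 3.40 and a −log10 p of 5.02, above 96.0% of the list. The peak of 4 reads, with a −log10 p of 3.13, was already above 82.4%. The median −log10 p of that list was 2.1, so a high percentile there does not need many reads. The narrow peaks thus lay in the first 40% of the gene in replicate 3 and beyond it in replicate 2. A peak of replicate 3, 12348 bp wide with 1 read at its summit, covered a 40 bp peak of replicate 2. That was the only overlap of these lists in the gene.

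The subunits common to the U6 and decay rings are LSM2 to LSM7, and of their 9 peaks those with the most reads were at LSM7 and LSM3. LSM7 (chromosome 19, 2321521 to 2328586) had 1 peak, in replicate 2, with 23 reads at 218 bp from the 3′ end. Its background there was 12.6 scaled reads, so its fold was 1.76 and its −log10 p of 2.55 exceeded 16.0% of the list. LSM3 (chromosome 3, 14178817 to 14201122) had a peak of 21 reads in replicate 3 at 12.7% of the span, with a fold of 3.16. Its other peaks, at 40.4% in replicate 2 and at 56.3% in replicate 3, had 1 read each at the summit. That of replicate 3 was 4077 bp wide. In replicate 1 the nearest peak lay 261 bp upstream of the LSM3 span, in XPC, which encodes a DNA damage sensor, with 10 reads and a fold of 4.89.

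LSM5 (chromosome 7, 32485338 to 32495283) had 1 peak, in replicate 2, with 9 reads at 66.9% of the span and a fold of 2.70. In replicate 1 the nearest peak stood 482 bp upstream of the LSM5 span, in AVL9, with 10 reads. LSM6 (chromosome 4, 146175718 to 146191535) had a peak of 6 reads in replicate 3 at 73.3% from the low-coordinate end, with a fold of 2.46. Its 2 other peaks, in replicates 2 and 3, had 1 read each at the summit and lay at 93.1% and 3.6% from that end. LSM2 (chromosome 6, 31797396 to 31806966) had 1 peak, in replicate 1, with 3 reads at 198 bp from the 5′ end and a fold of 2.60. No peak of LSM2, LSM3, LSM5, LSM6 or LSM7 overlapped a peak of another list.

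LSM4 (chromosome 19, 18306236 to 18323076) had no summit and no overlapping peak in any list, although 81.9% of protein-coding genes had a summit in at least 1. The nearest peaks lay 24776, 1016 and 4215 bp outside its span in replicates 1, 2 and 3, the last 2 with 1 read each. A missing peak does not show that the RNA was absent from the precipitate, since a peak is called against the caller's background.

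**Figure D4:**
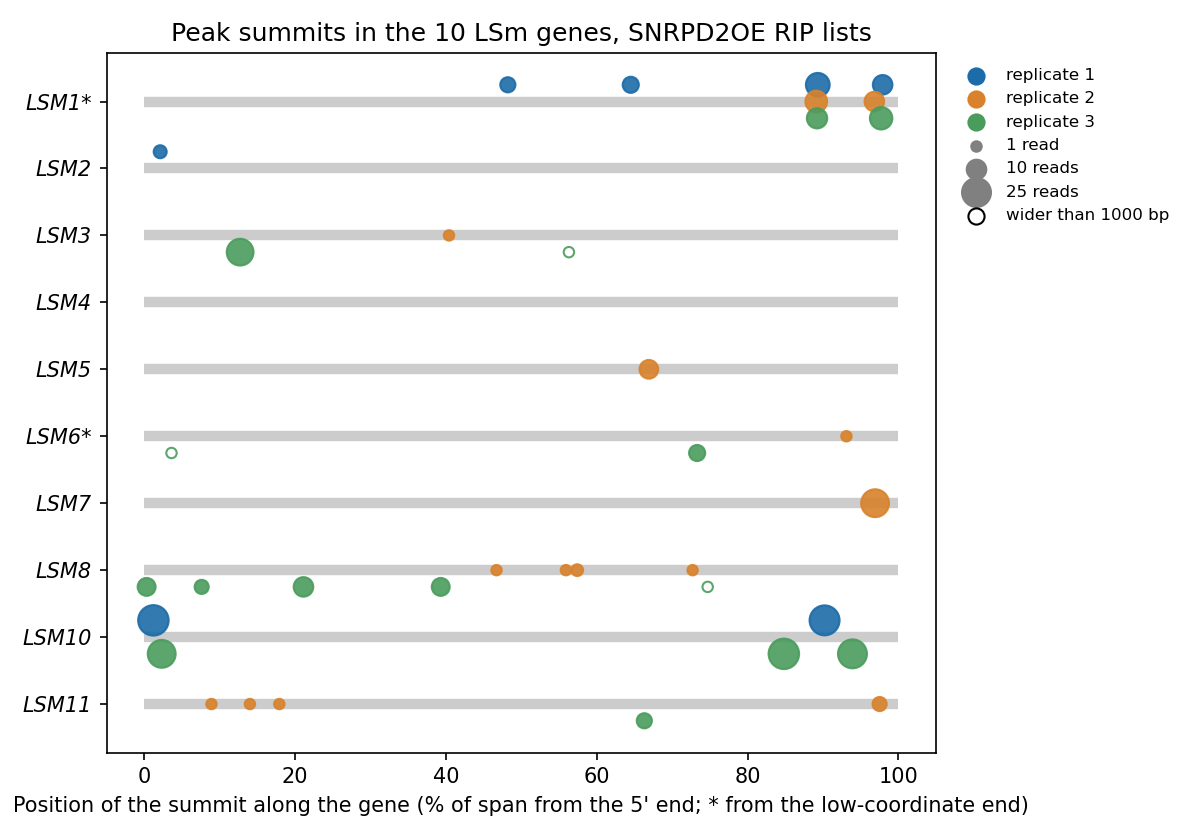
Summits of all 36 peaks along the 10 LSm genes, as percent of the gene span from the 5′ end (for LSM1 and LSM6, from the low-coordinate end). Colours stand for replicates, point area grows with reads, and open points are peaks wider than 1000 bp. Points of all 3 replicates lie together in LSM1 at 89% and at 97% to 98%, and LSM4 has none.

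In the 8 genes whose strand the promoter table gives, 2 of 3 summits lay in the first 10% of the span in replicate 1, 1 of 11 in replicate 2 and 3 of 11 in replicate 3. In 15842 protein-coding genes with a strand, 14.2%, 12.6% and 14.6% of the summits lay there. The last 10% of the span held 1, 2 and 1 of these LSm summits, against 19.1%, 17.5% and 13.9% in the protein-coding genes. With 3 to 11 summits per list these counts are too few to set the LSm genes apart. Of the 7 LSm peaks of replicate 1, 2 met one from replicate 2 and 4 met one from replicate 3, against 35.0% and 29.2% of the peaks in protein-coding genes. Of the 14 LSm peaks of replicate 2, 2 overlapped replicate 1 and 2 overlapped replicate 3, against 8.31% and 47.2%. Of the 15 of replicate 3, 4 overlapped replicate 1 and 2 overlapped replicate 2, against 16.4% and 57.7%. Of all peaks of replicate 3, 75.7% were wider than 1000 bp, against 3 of its 15 LSm peaks. The shares that involve replicate 3 are therefore not a like measure, and the part of peak width was not tested. All overlaps of LSm peaks lay in LSM1, LSM8 and LSM10.

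Of the 11 annotated pseudogene copies of LSm genes, which come from LSM1, LSM2, LSM3 and LSM6, none held a summit in any list. The nearest in pattern to LSM1 were 9 protein-coding genes with the same 4, 2 and 2 summits. Of these SLC25A10, SLC6A8 and WDR6 had the nearest spans, which were 4681 to 4849 bp shorter. The strongest peaks of SLC25A10 had 8, 8 and 9 reads and those of SLC6A8 had 8, 5 and 5. WDR6 had 11, 13 and 18 reads, where the strongest LSM1 peaks by −log10 p had 16, 10 and 11. WDR6 held no segment covered by all lists, and of the 3 genes SLC6A8 held 1.

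Most of the genes that act with the LSm rings had a summit in every list, and as groups they have longer spans. The counts below stand beside 38.5% of all protein-coding genes with a summit in all lists and 10.8% with a shared segment, or 22.8% and 5.95% of those within the LSm range of spans, and whether the groups differ from genes of their own spans was not tested. Among 8 factors of decapping and 5′ to 3′ mRNA decay, the partners of the LSM1 ring, 7 had a summit in all 3 lists and 4 held a shared segment. Their median span was 54100 bp. XRN1, the exonuclease that degrades decapped mRNA, had folds of 4.42, 5.93 and 2.97 with 6, 6 and 8 reads. DCP1B, a decapping cofactor, had folds of 5.38, 3.86 and 2.50 with 8, 3 and 6 reads, and EDC3, which enhances decapping, 2.84, 5.26 and 2.0 with 22, 9 and 4. The strongest peaks of DCP1B and EDC3 in replicate 3 were 4862 and 14381 bp wide.

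Among 10 genes of U6 biogenesis and of U6-associated proteins, 8 had a summit in all 3 lists and 1 held a shared segment, at a median span of 18800 bp. PRPF4, a protein of the U4/U6 particle, had folds of 5.30, 3.47 and 3.75 with 16, 15 and 12 reads. PRPF3, its partner there, had folds of 7.86, 3.68 and 2.43 with 14, 6 and 6 reads. SART3, which helps U6 join U4, had folds of 4.03, 4.76 and 3.26 with 6, 6 and 10 reads, and held the segment. Among 8 genes of U7 and histone pre-mRNA processing, 7 had a summit in all lists and 4 held a segment, at a median span of 48600 bp. SYMPK, a scaffold of the cleavage complex, had folds of 5.53, 3.92 and 3.75 with 9, 10 and 12 reads. CPSF3, the endonuclease, had 3.85, 3.43 and 4.66 with 6, 21 and 15 reads, and ZNF473, a U7-associated zinc finger protein, 4.65, 3.36 and 3.62 with 7, 10 and 12 reads.

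Of 9 other proteins with an LSm domain 7 had a summit in all lists and 2 held a segment. Both counts include EDC3, which is also counted among the decay factors above. LSM14B, with a span of 12900 bp close to that of LSM1, had folds of 5.53, 4.29 and 2.98 with 9, 5 and 8 reads. ATXN2L, an RNA-binding relative of ataxin-2, had folds of 3.80, 4.20 and 3.63 with 11, 7 and 12 reads, and ATXN2 had 3.21, 3.61 and 2.0 with 4, 3 and 4 reads, the last in a peak 32197 bp wide. The Sm ring genes, closest to the LSm genes in role and with a median span of 11000 bp, had counts like theirs. Of 8 Sm genes, 3, 6 and 5 had a summit in replicates 1, 2 and 3, and 2, SNRPD2 and SNRPD1, had one in all lists. SNRPD1 had folds of 4.48, 3.68 and 1.82 with 9, 6 and 4 reads. SNRPD2, the overexpressed gene, had folds of 2.17, 2.79 and 3.46 with 78, 80 and 78 reads at its strongest peaks. These reads were the highest number in each list. That maximum was thus nearly the same in lists that differ in size and in the weight of a read. Whether the depth at a summit has a ceiling was not tested, so the SNRPD2 reads and folds may be too low. Its folds were below those of SNRPD1 in replicates 1 and 2 and above in replicate 3. These groups and the LSm genes were not tested against each other.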

How the data were processed

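RIP-seq peak lists of 3 SNRPD2OE samples, grouped by the labels, were analysed. The submitters' processing notes name build GRCh38 and the tools STAR 2.7.10b, cutadapt 4.2 and, for peaks, MACS2 2.2.9.1. What the lists were called against, and with which options, duplicate treatment and strand, is not given in the sources used here. Extraction text in the labels covers rRNA-depleted total RNA and not the immunoprecipitation. In the deposited lists the score is 10 times the −log10 p-value, cut to its whole part. The fold in the deposited lists behaves as scaled pileup plus 1, divided by background plus 1. The p-value deposited as −log10 is not adjusted, and the authors also give a −log10 q-value.

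The LSm genes, the 5 pathway lists and the rules were chosen with earlier results of these data known. All members are named. Each pathway list contributes up to 3 genes with summits in all lists, ranked by mean percentile of the strongest −log10 p. Genes like a member share its summit counts and have the nearest spans. Reads at a summit were solved from fold and −log10 p within 0.002, which succeeded for 30111, 160931 and 65096 peaks. In simulated peaks the known reads were recovered for 99.9%, 100% and 100% in replicates 1, 2 and 3. These peaks were built with the same formula and read weight as the solution. They therefore check the inversion only, and cannot show that the pileup model or the read weight is right. Their backgrounds and reads did not reach the highest values reported above. Library totals are unknown, and counts hold for the listed peaks only. Shared segments needed 20 bp or more in every list and were placed by their midpoint. No test was run, since 1 group was analysed. Alternatives changed the q-value, reads, width, list length, span, overlap, segment length or replicates. Python 3.11.15, pandas 2.3.3 and scipy 1.17.1 were used.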

Additional observations from a re-analysis of the deposited data

How the results depend on the processing

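With a −log10 q of at least 1.3, the number of LSm genes with a summit was 1 in replicate 1 (LSM1), 0 in replicate 2 and 1 in replicate 3 (LSM10), and 0 genes had a summit in all lists or a shared segment. With at least 10 reads, or with lists of equal length, replicate 2 kept 2 genes of 7 (LSM1 and LSM7, or LSM1 and LSM11). With 500 bp added on both sides of each span, 2 genes had a summit in all lists, LSM1 and LSM3. Leaving out each replicate in turn gave 1 to 5 genes with a summit in every remaining list and 1 to 2 with a shared segment. Without replicate 1 the 5 were LSM1, LSM3, LSM6, LSM8 and LSM11, without replicate 2 LSM10 joined LSM1, and without replicate 3 LSM1 alone remained. The other 29 of these counts stayed within 1.5 times the reported value. LSM1 had a summit in all lists used under each alternative except the q-value. No paired analysis was possible because files of 1 group only were analysed. A depth of 1 read at the summit was found for 0 of 7 LSm peaks in replicate 1. It was found for 8 of 14 in replicate 2 and 3 of 15 in replicate 3. The shares over all peaks were 0.0%, 71.4% and 55.0% in replicates 1, 2 and 3. The depth of the libraries is unknown.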
